A study of Mus musculus with 12 samples.

Results

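Epididymal white adipose tissue (EWAT) was compared with retroperitoneal white adipose tissue (RWAT) in 6 RNA-seq libraries, 3 of each depot, out of 12 libraries in the series. The 6 libraries were chosen by their titles, which name the depot and a replicate number. Both groups came from wild type male C57BL/6J mice aged 6 to 10 weeks that ate a standard low-fat diet, and both depots had been denervated by surgery. No innervated fat was analysed here, so denervation is a condition that both groups share. The other 6 libraries, 3 of inguinal white fat (IWAT) and 3 of brown fat (BAT), were denervated too and are quoted only to place a level. Whether each library stands for its own animal or for pooled tissue is not in the labels. The p-values then measure only how far these samples lie apart, and that spread may be technical.

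EWAT is the fat pad that wraps the epididymis, the duct in which sperm mature, and lies inside the peritoneal cavity next to the testis. RWAT lies behind the peritoneum along the back wall, near the kidney. Both are stores of triglyceride, made of white adipocytes with stromal, vascular and immune cells between them, and peritoneal surfaces carry a sheet of mesothelial cells. Fat depots come from different embryonic precursors, and preadipocytes keep position-specific transcription factors such as T-box and homeobox genes into adult life. Leptin, adiponectin and the enzymes of fatty acid synthesis are typical products of white adipocytes.

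Levels are given as CPM, counts scaled to a common library total, after TMM scaling, a correction for library composition. Differences are log2 fold changes of EWAT minus RWAT, so that a positive value means more in EWAT. A gene was called where the Benjamini-Hochberg adjusted p of edgeR's quasi-likelihood test, over all 19154 genes tested, was under 0.05. In bulk tissue, fewer cells of a type and less RNA per cell cannot be told apart.

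The EWAT libraries held 16358051 to 20219615 counts and the RWAT libraries 15699912 to 18227111. Several libraries stood apart within their depot, as the plot of gene lists by library shows. EWAT replicate 1 held transcripts of the epididymal epithelium, and EWAT replicates 2 and 3 held transcripts of male germ cells. RWAT replicate 1 was rich in lipogenic transcripts and in mitochondrial counts (11.6% of its total, against 3.28% to 4.87% in the other 5 libraries). RWAT replicate 3 held skeletal muscle transcripts. Adipoq, the adiponectin gene, was present in all 6 libraries, at 513, 640 and 297 CPM in EWAT and 1569, 257 and 276 CPM in RWAT, so every library held adipocyte RNA.

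**Figure D1:**
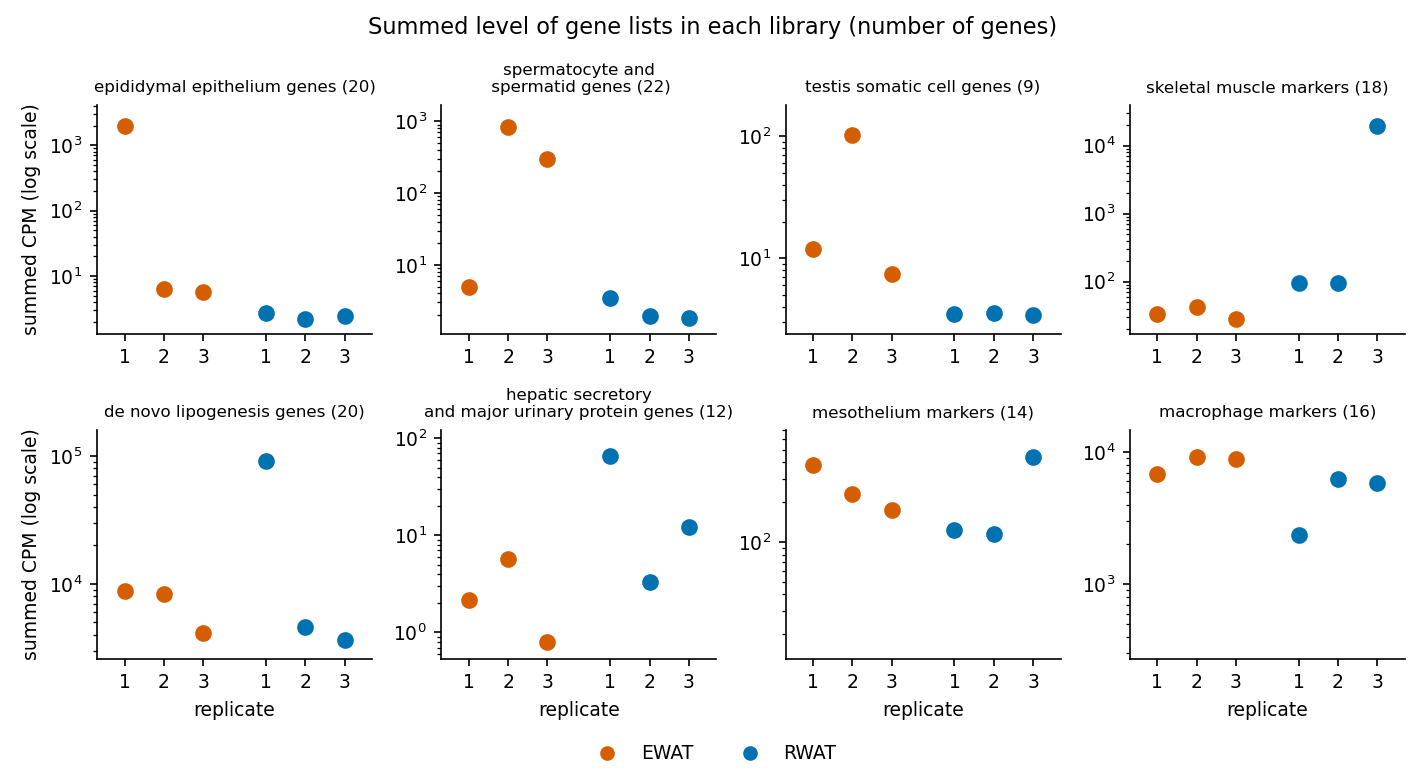
Summed level of 8 gene lists in each EWAT and RWAT library, in CPM on log axes that differ between panels; each point is 1 library. Epididymal genes stand out in EWAT replicate 1 (1966 CPM), germ cell genes in EWAT replicates 2 and 3 (828 and 295 CPM), muscle markers in RWAT replicate 3 (19140 CPM) and lipogenesis genes in RWAT replicate 1 (90700 CPM).

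Between the depots, 8 of 19154 genes were called (0.0418%), 4 higher in EWAT and 4 higher in RWAT (0.0209% each). The RWAT genes included the developmental transcription factors Tbx15 and Zfhx4 and the matrix protease gene Mmp3. The 4 EWAT genes were the ribosomal protein gene Rps16, its copy Rps16-ps2, the Rpl13 copy Gm12918, and Bspry. Without a correction for the number of genes, 1732 genes (9.04%) had p under 0.05. All 3 EWAT libraries lay above all 3 RWAT libraries for 1573 genes (8.21%) and below them for 1276 (6.66%). The median log2 fold change of all genes was −0.04.

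Tbx15 (ENSMUSG00000027868, chr3:99240381-99354259 on GRCm38) encodes a T-box transcription factor known from subcutaneous preadipocytes. RWAT held 4.35, 6.40 and 21.9 CPM of Tbx15, and EWAT held 0.0528, 0.171 and 0 CPM. The EWAT values came from 1, 4 and 0 counts, at or near the limit of 3 counts that a count of 0 allows. The log2 fold change of Tbx15 was −6.99 (SE 0.84, edgeR adjusted p = 0.020), a fitted value that depends on the prior count at such low levels. Over summed counts, Tbx15 was 134-fold higher in RWAT, with an exact 95% interval of 57.2 to 415 that covers counting error only. The RWAT counts were 73, 142 and 403, so most came from replicate 3, the library with muscle transcripts. With RWAT replicate 3 left out, edgeR still called Tbx15 lower in EWAT. How much of the Tbx15 level in replicate 3 came with the muscle RNA was not tested. IWAT held 25 ± 3.39 CPM of Tbx15 and BAT 33.3 ± 7.45 (SD, n = 3 each), so EWAT was the lowest of the 4 depots. With 1 library fewer in EWAT, Tbx15 had adjusted p = 0.0643 without replicate 2 and 0.0592 without replicate 3. With limma-voom its adjusted p was 0.220, or 0.0506 with quality weights. In edgeR's fit of the 6 EWAT and RWAT libraries alone it was 0.419.

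Zfhx4 (ENSMUSG00000025255, chr3:5218526-5415857), a large zinc finger homeobox factor, had a smaller SE than Tbx15 or Mmp3. RWAT held 64.7, 58.0 and 65.1 CPM of Zfhx4 and EWAT 12.7, 9.85 and 8.70 CPM. Zfhx4 differed by −2.59 (SE 0.23, edgeR adjusted p = 0.00347). Its levels in IWAT and BAT, 77.8 ± 7.72 and 82.8 ± 22.3 CPM (n = 3 each), were near that of RWAT.

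Tbx15 and Zfhx4 belong to a list of 16 developmental genes of subcutaneous and trunk fat. Of its 15 tested members, 3 were called higher in RWAT, 0 higher in EWAT, and 12 were not called. Uncorrected, 10 had p under 0.05, where 9.04% of all genes did, and DESeq2 called 6, all lower in EWAT. Of all genes with an adjusted p, DESeq2 called 3.51%, 2.45% as higher and 1.06% as lower in EWAT. The list's median log2 fold change was −1.97, against −0.04 for all genes, and 14 of 15 members were below 0. In 8 of the 15, all 3 EWAT libraries lay below all 3 RWAT libraries, where 6.66% of all genes did. Leaving out RWAT replicate 3 brought the median to −1.3.

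Of the members that were not called, 4 are named here after their values were seen. En1, a homeobox gene of the trunk dermomyotome, held 0.897, 0.60 and 0.700 CPM in EWAT and 2.08, 4.91 and 4.24 in RWAT (log2 −2.35, edgeR adjusted p = 0.0951). Meox2, a mesoderm homeobox gene, held 10.2, 5.87 and 7.10 CPM in EWAT and 18.3, 31.2 and 16.3 in RWAT (log2 −1.5, edgeR adjusted p = 0.135). Pax3, a factor of muscle and dermal precursors, held 0.106, 0.0428 and 0.1 CPM in EWAT and 0.596, 2.57 and 1.14 CPM in RWAT (log2 −4.05, edgeR adjusted p = 0.130). The depots did not overlap in any of these 3 genes. Shox2, by contrast, was low in both: EWAT held 0.422, 0.385 and 0.05 CPM and RWAT 0.417, 0.991 and 2.01, while IWAT held 15.1 to 28.4 CPM.

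**Figure D2:**
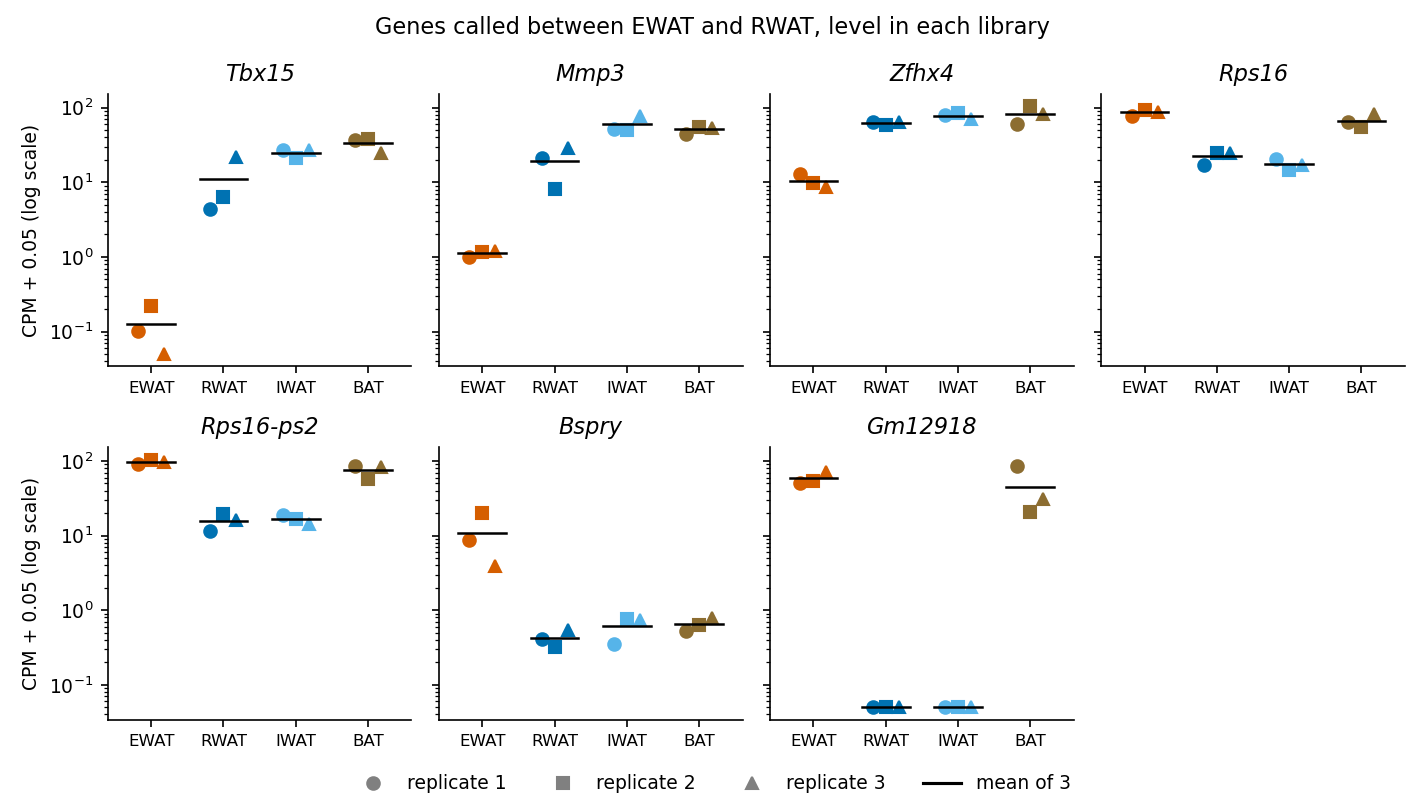
Level of 7 called genes in all 12 libraries, as CPM with 0.05 added on a log axis; symbols mark the replicate and bars the mean of 3 libraries. In Tbx15, Mmp3 and Zfhx4 the EWAT libraries lie below the other 3 depots; in Rps16, Rps16-ps2 and Gm12918 EWAT and BAT are high and RWAT and IWAT low; Bspry is high in EWAT alone of the 4 depots.

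Mmp3 (ENSMUSG00000043613, chr9:7445822-7455975) encodes stromelysin 1, a secreted protease that cleaves matrix proteins. EWAT held 0.95, 1.11 and 1.15 CPM of Mmp3 and RWAT 21.4, 8.2 and 28.4 CPM. Mmp3 differed by −4.16 (SE 0.42, edgeR adjusted p = 0.00607). Without EWAT replicate 2 its adjusted p was 0.0643, and limma-voom gave 0.0776. In IWAT Mmp3 held 59.9 ± 14.4 CPM and in BAT 51.4 ± 5.86 (n = 3 each).

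The stretch before the Mmp3 start is shown because Mmp3 was the only gene called higher in RWAT that the RefSeq promoter table (GRCm38.p6) holds. The capitals mark TGAGTCA, the AP-1 site known from matrix metalloproteinase promoters. It was searched as TGAGTCA and TGACTCA, and 4.43% of 27025 promoters of this length held it on either strand. A match is a description and not a bound site. The sequence is chr9:7445572-7445821, plus strand.
Mmp3 promoter: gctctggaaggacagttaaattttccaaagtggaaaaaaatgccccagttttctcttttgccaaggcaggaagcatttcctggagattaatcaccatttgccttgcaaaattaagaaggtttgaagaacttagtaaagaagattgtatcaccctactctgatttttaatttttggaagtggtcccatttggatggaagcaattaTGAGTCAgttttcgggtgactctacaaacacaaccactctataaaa

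Mmp3 was the 1 called member among 20 collagen and matrix genes, all tested, with 0 higher in EWAT. The list's median log2 fold change was −0.51, between −0.87 without RWAT replicate 1 and −0.30 without RWAT replicate 3, and 16 members were below 0. Col3a1, a fibrillar collagen gene and the most abundant of the 16 stromal progenitor markers, held 6694, 4845 and 5241 CPM in EWAT and 3329, 10310 and 18900 CPM in RWAT (log2 −0.96, edgeR adjusted p = 0.795). RWAT replicate 1 was the lowest of the 6 libraries in Col3a1 and replicate 3 the highest, so the depots overlapped. Of the 16 stromal markers edgeR called 0, 4 had an unadjusted p under 0.05 and DESeq2 called 1. Over all genes the last 2 shares were 9.04% and 3.51%. The stromal median was −0.65, or −0.30 without RWAT replicate 3.

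Rps16 (ENSMUSG00000037563, chr7:28350652-28353155), a gene of the small ribosomal subunit, was called higher in EWAT. EWAT held 77.0, 94.5 and 87.7 CPM of Rps16 and RWAT 17.0, 24.8 and 24.7 CPM. Rps16 differed by 1.96 (SE 0.22, edgeR adjusted p = 0.0122). Its edgeR adjusted p was 0.0643 without EWAT replicate 2, 0.0592 and 0.0635 without RWAT replicates 2 and 3, and 0.113 with library sizes alone. Rps16-ps2 (ENSMUSG00000060419, chr5:129128077-129128517, minus strand), an annotated processed pseudogene, moved with it: EWAT held 92.0, 103 and 98.4 CPM and RWAT 11.6, 19.6 and 16.04. Rps16-ps2 differed by 2.63 (SE 0.24, edgeR adjusted p = 0.00347).

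Rps16-ps2 is 441 bases long and has 0 differences from the coding sequence of Rps16, and all 367 of its windows of 75 bases, the read length, occur in Rps16. No read inside the copy can be assigned to 1 of the 2 genes by sequence, and RSEM divides such reads by estimate. A window of that length, bases 101 to 175 of the copy, is printed without capitals since nothing in it differs.
Rps16 and Rps16-ps2: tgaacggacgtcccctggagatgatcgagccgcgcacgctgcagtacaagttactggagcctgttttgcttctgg

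Summed over Rps16 and its copies, the EWAT libraries held 169, 198 and 186 CPM and the RWAT libraries 28.6, 44.5 and 40.8 CPM. The sum differed by 2.28 (SE 0.22, edgeR adjusted p = 0.00607) in a fit added after the data were seen. BAT held 151, 113 and 166 CPM of this sum and IWAT 39.7, 31.2 and 31.5, so EWAT and BAT were alike in level, and so were RWAT and IWAT. Of 76 tested cytosolic ribosomal protein genes, a list drawn up after the data were seen, Rps16 alone was called, and their median was 0.10.

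Gm12918 (ENSMUSG00000066315, chr4:10848420-10849055), annotated as a processed pseudogene, is 636 bases long with 0 differences from the coding sequence of Rpl13, a gene of the large ribosomal subunit. EWAT held 51.4, 54.7 and 71.7 CPM of Gm12918, and all 3 RWAT libraries were at 0 counts, as were the 3 IWAT libraries. All 562 of its windows of 75 bases occur in Rpl13, so no read inside Gm12918 can be assigned to it by sequence. Its counts, and the counts of 0, rest on RSEM's division by estimate. Against a floor of 3 counts in each RWAT library, the counts given to Gm12918 were at least 373-fold higher in EWAT (edgeR adjusted p = 0.0288). That fold describes assigned counts and is no bound on expression. Its deposited posterior SD, the uncertainty RSEM gives each count, was 11.9% of the count. Calls of Gm12918 were lost with any RWAT library left out (adjusted p = 0.0724 to 0.0834) and without EWAT replicate 2 or 3 (adjusted p = 0.145 and 0.0765).

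Rpl13 itself held 255, 308 and 280 CPM in EWAT and 209, 369 and 365 in RWAT. Summed with its copies, Rpl13 was at 309, 363 and 352 CPM in EWAT and at 209, 370 and 365 CPM in RWAT (log2 0.12, SE 0.24, edgeR adjusted p = 0.921). The depots overlapped in this sum, and only its division between Rpl13 and Gm12918 differed. Another copy, Gm15710, differs from Rpl13 by G519A, counted from 1 at the first base of the coding sequence. Bases 494 to 544 of the 3 sequences are shown, with that position in capitals.
Rpl13: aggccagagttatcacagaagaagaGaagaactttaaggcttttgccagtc
Gm12918: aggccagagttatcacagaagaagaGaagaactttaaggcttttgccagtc
Gm15710: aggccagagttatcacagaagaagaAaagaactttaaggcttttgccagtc

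**Figure D3:**
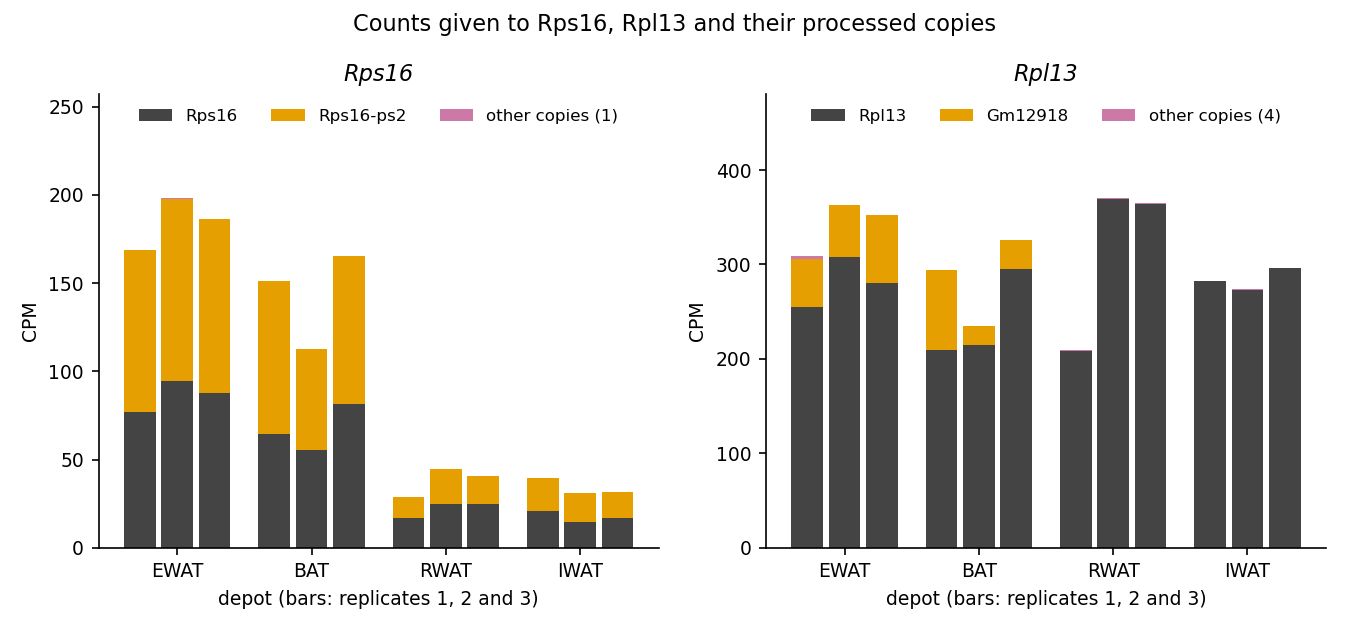
Stacked bars give the CPM assigned to Rps16 (left) and Rpl13 (right) and to their processed copies, 1 bar per library, for 4 depots. The Rps16 sum is 169 to 198 CPM in EWAT and 28.6 to 44.5 in RWAT, while the Rpl13 sum overlaps between them and only EWAT and BAT carry counts on Gm12918.

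Bspry (ENSMUSG00000028392, chr4:62480053-62497298), a B-box and SPRY domain gene known from epithelia and testis, held 8.60, 19.9 and 3.85 CPM in EWAT and 0.357, 0.270 and 0.489 CPM in RWAT. Bspry differed by 4.84 (SE 0.65, edgeR adjusted p = 0.0376). The 3 EWAT libraries differed among themselves by more than the RWAT libraries did. Bspry was called under 7 of 17 alternatives, with adjusted p from 8.60e-10 with DESeq2 to 0.406 in a fit of the 6 libraries alone. With Rps16 and Rpl13 summed with their copies, the Rps16 sum alone was called higher in EWAT, and Bspry was not called. Its levels stand beside reproductive tract transcripts in the same EWAT libraries, whose part in the Bspry result was not tested.

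Those transcripts were described with 3 lists drawn up after the data were seen, with no test. The 20 epididymal epithelium genes summed to 1966 CPM in EWAT replicate 1, to 6.42 and 5.65 CPM in replicates 2 and 3 and to 2.21 to 2.68 CPM in RWAT. Crisp1, a secreted protein that coats maturing sperm, held 1142 CPM in EWAT replicate 1, 0 and 0.350 CPM in replicates 2 and 3 and 0 in RWAT. Adam7, a surface protein of the epididymal duct, held 216 CPM in EWAT replicate 1, 0 and 0.05 CPM in the other EWAT libraries, and 0 in RWAT. Beta-defensin genes, which encode antimicrobial peptides of the duct, followed: Defb28 held 100 CPM and Defb22 85.1 CPM in that library and 0 in the other 5. Of the 20 genes, 18 were above 3 counts in EWAT replicate 1, 4 each in replicates 2 and 3, and 2 in every RWAT library.

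The 22 spermatocyte and spermatid genes summed to 828 and 295 CPM in EWAT replicates 2 and 3, to 4.96 CPM in replicate 1 and to 1.79 to 3.45 CPM in RWAT. All 22 were above 3 counts in EWAT replicates 2 and 3. Ldhc, the lactate dehydrogenase of sperm, held 145 and 48.3 CPM there, 0.0528 CPM in replicate 1 and at most 0.0544 CPM in RWAT. Prm2, a protamine that packs sperm DNA, held 95.7 and 8.90 CPM in EWAT replicates 2 and 3, Akap4, a scaffold of the sperm tail, 34.4 and 19.8 CPM, and both were at 0 in RWAT. The 9 genes of Leydig and Sertoli cells, the somatic cells of the testis, summed to 102 CPM in EWAT replicate 2, with 75.8 CPM from the tight junction gene Cldn11, against 11.98 and 7.40 CPM in replicates 1 and 3.

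The Ldhc promoter is printed as the germ cell gene of highest level, with a RefSeq entry. Capitals mark TGACG, the core of a cAMP response element, searched also as CGTCA; 17.9% of 27025 promoters held it on either strand. It occurs 2 times in chr7:46861013-46861262, plus strand, GRCm38.p6, which lies before the RefSeq start and reaches into the GENCODE gene, whose start is at 46861203.
Ldhc promoter: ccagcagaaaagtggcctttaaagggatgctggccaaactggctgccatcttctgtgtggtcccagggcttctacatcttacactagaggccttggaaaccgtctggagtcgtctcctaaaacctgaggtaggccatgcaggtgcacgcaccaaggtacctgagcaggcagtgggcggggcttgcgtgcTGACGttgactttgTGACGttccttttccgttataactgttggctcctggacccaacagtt

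Genes of at least 2 CPM in the named library and at most 3 counts in every other library of the series numbered 71 in EWAT replicate 1 and 29 in EWAT replicate 2. Another 214 genes were found in EWAT replicates 2 and 3 together, with a mean sum of 2009 CPM. Atp8b3, a phospholipid transporter of the sperm acrosome, was the 1 gene found in all 3 EWAT libraries, at 2.00, 132 and 30.2 CPM. RWAT replicates 1, 2 and 3 had 1, 0 and 1 such genes.

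The number of calls changed most with that library. When EWAT replicate 1 was left out, edgeR called 804 of 20615 genes (3.9%), 759 higher (3.68%) and 45 lower (0.218%) in EWAT. Of the 759, 490 had at most 3 counts in EWAT replicate 1 and 479 had at most 3 counts in every RWAT library. The 759 included 21 of the 22 germ cell genes. That list was drawn up after these libraries were seen, so its count is no separate result. Only 5 of the 22 passed the filter with every library, against all 22 here. The genes tested rose from 19154 to 20615, so part of the added calls may be newly tested genes. In 239 of the 759, EWAT replicate 1 too lay above all RWAT libraries. Of the 45 lower genes, 41 lay below all RWAT libraries in EWAT replicate 1 as well. All 8 genes called with every library were also called there.

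Several of the uncalled EWAT genes of smallest p, within the same limits of level and overlap as used for naming, varied widely between the EWAT libraries. Trank1, a large repeat protein gene, held 23.4, 45.3 and 4.45 CPM in EWAT and at most 0.179 CPM in RWAT (log2 7.54, edgeR adjusted p = 0.0933). Glb1l3, a beta-galactosidase-like gene, held 35.6, 5.10 and 1.2 CPM in EWAT, highest in the library with epididymal transcripts. Dkkl1, Dnah12 and Oaz3, known from spermatids or motile cilia, were highest in EWAT replicates 2 or 3, at 35.7, 24.8 and 26.8 CPM, against 0.686, 3.85 and 0.95 CPM in replicate 1. Spint2, an epithelial protease inhibitor, held 19.2, 18.7 and 5.35 CPM in EWAT and 1.44 to 4.02 CPM in RWAT (log2 2.45). Adjusted p was 0.128 for Glb1l3, Dkkl1, Dnah12, Oaz3 and Spint2 and 0.104 for Atp8b3 with edgeR.

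A smaller set was even over the 3 EWAT libraries. Galc, the lysosomal enzyme that degrades galactosylceramide, held 43.2, 41.9 and 47.0 CPM in EWAT and 18.8, 26.2 and 24.0 CPM in RWAT (log2 0.94, SE 0.17). Naglu, the lysosomal enzyme that trims heparan sulfate, held 41.1, 53.6 and 49.0 CPM in EWAT and 19.3, 24.1 and 27.9 in RWAT (log2 1.01, SE 0.19). Cryl1, a crystallin-related dehydrogenase, held 17.5, 24.8 and 19.2 CPM against 7.44, 11.0 and 9.14 (log2 1.16, SE 0.24). That their depots did not overlap was a condition of their choice, and edgeR's adjusted p was 0.128 for each.

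On the RWAT side 8 uncalled genes were taken by smallest p among genes whose depots did not overlap and whose log2 CPM averaged 2 or more. Gfra2, a receptor for neurturin, held 2.80, 2.40 and 1.3 CPM in EWAT and 12.6, 7.34 and 11.3 CPM in RWAT (log2 −2.26, edgeR adjusted p = 0.0652). Thbs4, a matrix thrombospondin, held 1.27, 0.771 and 1.75 CPM against 16.1, 15.9 and 93.5, the last in the library with muscle transcripts (log2 −5.05). Dkk2, a secreted Wnt modulator, held 0.317, 0.257 and 1.25 CPM against 8.87, 15.0 and 24.3 (log2 −4.71). Ebf2, a factor of adipocyte precursors and brown fat, held 17.5, 11.99 and 12.1 CPM against 45.1, 30.3 and 35.8 (log2 −1.42). The remaining genes were Tmeff2 (log2 −1.36), Tmem100 (log2 −2.03), the matrix gene Adamtsl3 (log2 −1.93) and the endothelial surface gene Ly6c1 (log2 −1.32). Apart from Gfra2 these 7 genes had adjusted p = 0.128 with edgeR.

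Hox genes, which record position along the body axis, were not called in either direction. Of 39 Hox genes 26 were tested and 0 called by edgeR (7 at an unadjusted p under 0.05, against 9.04% of all genes). Their median log2 fold change was −0.53, or −0.25 without RWAT replicate 3. In 9 of the 26 all EWAT libraries lay below all RWAT libraries and in 0 above, where 6.66% and 8.21% of all genes did. These 9 were 5 of the 9 tested HoxA genes and 4 of the 6 tested HoxC genes, with none of the 8 HoxB or 3 HoxD genes. DESeq2 called Hoxa9, Hoxa10 and Hoxc10, all lower in EWAT, where it called 1.06% of all genes that way.

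Hoxc10 held 0.739, 0.214 and 0.650 CPM in EWAT and 7.80, 5.18 and 1.47 CPM in RWAT (log2 −3.17, SE 0.71, edgeR adjusted p = 0.168). Hoxa9 and Hoxa10 are named after their values were seen. Hoxa9 held 1.37, 0.642 and 1.45 CPM in EWAT and 14.9, 6.98 and 5.55 in RWAT (log2 −2.98, edgeR adjusted p = 0.157). Hoxa10 held 1.32, 0.60 and 0.95 CPM against 10.8, 4.78 and 1.52 (log2 −2.57, edgeR adjusted p = 0.300). In all 3 genes RWAT replicate 3 was the lowest RWAT library, and BAT was as low as EWAT or lower. Hoxc8, the most abundant Hox gene, overlapped between the depots, at 12.1, 12.8 and 8.15 CPM in EWAT and 32.0, 10.7 and 13.6 CPM in RWAT.

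**Figure D4:**
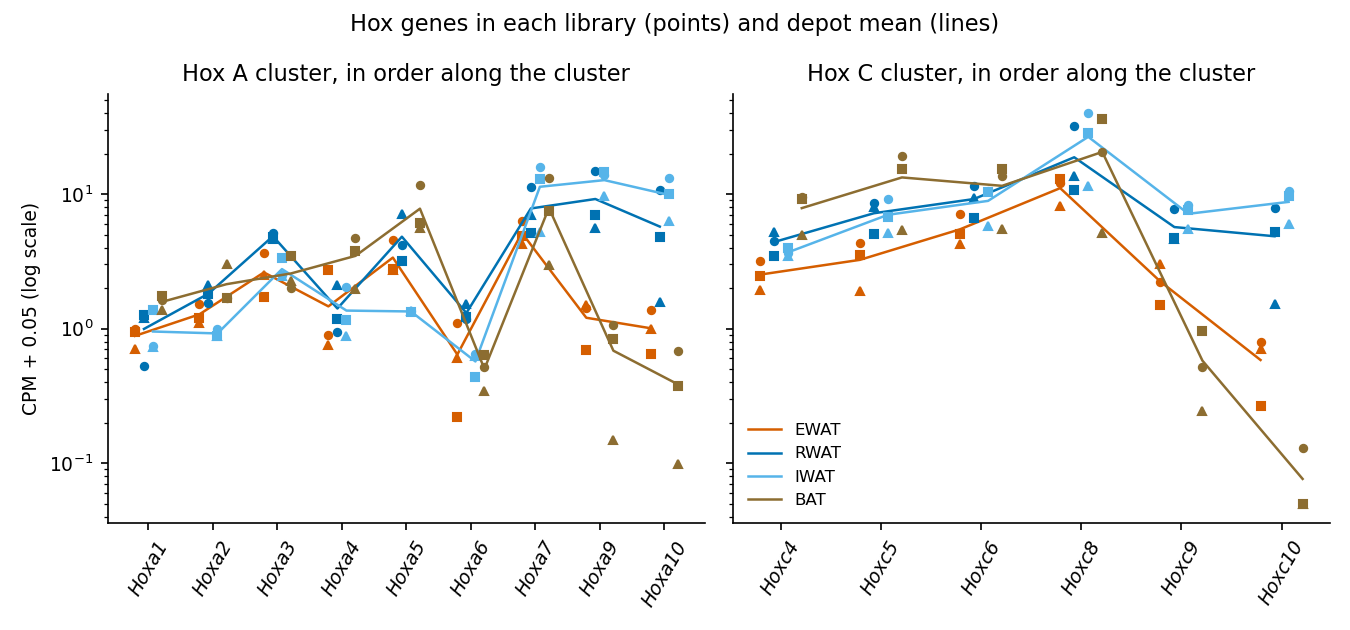
CPM with 0.05 added, on a log axis, of the tested HoxA and HoxC genes in the order of their numbers; points are libraries, with circle, square and triangle for replicates 1, 2 and 3, and lines join depot means. At Hoxa9, Hoxa10, Hoxc9 and Hoxc10 the EWAT libraries lie below all RWAT libraries.

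Visceral and mesothelial genes were not called in either direction. Wt1, a factor of mesothelium and visceral fat precursors, held 30.1, 38.8 and 20.6 CPM in EWAT and 4.05, 11.0 and 34.8 CPM in RWAT (log2 0.85, SE 0.69, edgeR adjusted p = 0.790). IWAT and BAT averaged 0.0707 and 0.0218 CPM of Wt1, so both depots compared here held it. RWAT replicate 3 was at the level of EWAT, and Gata6, another visceral factor, repeated this with 29.4, 24.1 and 25.8 CPM in EWAT and 7.50, 12.2 and 34.8 in RWAT (log2 0.54). Tcf21, a factor of visceral stroma, held 1.69, 4.8 and 1.05 CPM in EWAT and 0, 0.36 and 0.544 CPM in RWAT (log2 3.02, edgeR adjusted p = 0.403). Of the 11 tested visceral genes edgeR and DESeq2 called 0, with 2 at an unadjusted p under 0.05 and 2 with all EWAT libraries above all RWAT libraries. Over all genes the last 2 shares were 9.04% and 8.21%. The visceral median was 0.54, or 1.42 without RWAT replicate 3 and 0.29 without RWAT replicate 1. Nr2f1 (log2 0.19) and Efemp1 (log2 −0.33), the last 2 named visceral genes, overlapped.

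The 14 mesothelium markers summed to 385, 229 and 176 CPM in EWAT and to 124, 114 and 438 CPM in RWAT. RWAT replicate 3 was the highest of the 6 libraries. EdgeR and DESeq2 called 0 of the 14 (1 at an unadjusted p under 0.05, against 9.04% of all genes), and their median was 0.47. Without RWAT replicate 3 it was 1.59, and without EWAT replicate 1 or RWAT replicate 1 or 2 it was 0.039, 0.12 and 0.10. Muc16, a surface mucin and the most abundant marker, held 41.1, 8.91 and 10.5 CPM in EWAT and 28.1, 20.4 and 87.0 in RWAT (log2 −1.16).

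Immune genes lay higher in EWAT in most list members, and none passed the test. Of 16 macrophage markers 14 were above 0, with a median of 0.76, and in 10 of them all EWAT libraries lay above all RWAT libraries, where 8.21% of all genes did. Adgre1, the F4/80 antigen, held 368, 416 and 489 CPM in EWAT and 78.1, 349 and 228 CPM in RWAT (log2 0.96, SE 0.81, edgeR adjusted p = 0.796). Lyz2, the macrophage lysozyme gene, held 2758, 4093 and 3307 CPM in EWAT and 682, 2294 and 2395 in RWAT (log2 0.92). In both genes RWAT replicate 1, the lipogenic library, was the lowest of the 6. Without that library the macrophage median was 0.46.

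Antigen presentation genes were more even. Of 12 dendritic cell and MHC class II genes, 8 had all EWAT libraries above all RWAT libraries and 1 below, with a median of 1.08. Over all genes 8.21% lay above and 6.66% below in this way. Cd74, the invariant chain of MHC class II, held 342, 487 and 554 CPM in EWAT and 196, 175 and 258 CPM in RWAT (log2 1.14, SE 0.39, edgeR adjusted p = 0.364). DESeq2 called 2 of the 12, H2-Aa and H2-Eb1, with adjusted p = 0.0372 and 0.0462, named after their values were seen. It called 2.45% of all genes as higher in EWAT. RWAT replicate 1 did not stand apart in Cd74.

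Lymphocyte lists leaned the same way at low levels. Their members counted here as without overlap had all EWAT libraries above all RWAT libraries, where 8.21% of all genes did. Of 16 T and NK cell markers 15 were above 0, 8 without overlap, with a median of 0.93; Il2rb, the interleukin 2 receptor beta chain, held 4.17, 5.01 and 8.2 CPM in EWAT and 2.28 to 2.56 in RWAT (log2 1.27). Of 13 tested B and plasma cell genes 11 were above 0, 8 without overlap, with a median of 1.31, although Xbp1, the most abundant, had log2 −0.17. Igkc, the kappa light chain, held 77.0, 8.69 and 16.6 CPM in EWAT and 0.715, 1.58 and 3.15 in RWAT (log2 4.22, edgeR adjusted p = 0.194) and is named after its values were seen. Medians were 0.97 for 14 lipid-associated macrophage genes, whose top member Lpl had log2 −0.55, and 0.63 for 10 large peritoneal macrophage genes, with log2 1.03 for Laptm5. Without RWAT replicate 2 the lipid-associated median was 1.64, and without RWAT replicate 3 the peritoneal median was 1.15. Lymphoid cluster genes had a median of 0.17 (Cxcl13 log2 1.33), between −0.036 without EWAT replicate 3 and 1.21 without RWAT replicate 3. Neutrophil and mast cell markers had a median of −0.34 (Csf3r log2 0.39), which turned to 0.51 without RWAT replicate 3. Over these 8 immune lists edgeR called 0 of 100 genes. Of the 100, 18 had an unadjusted p under 0.05, where 9.04% of all genes did. DESeq2 called 6, all higher in EWAT, where it called 2.45% of all genes that way.

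Adipocyte genes lay below 0 in nearly all members, and the values rested on RWAT replicate 1. The 20 de novo lipogenesis genes summed to 8831, 8296 and 4162 CPM in EWAT and to 90700, 4642 and 3661 CPM in RWAT. Fasn, the fatty acid synthase, held 1279, 1007 and 308 CPM in EWAT and 20800, 250 and 550 CPM in RWAT (log2 −3.06, SE 1.60, edgeR adjusted p = 0.634). Scd1, the stearoyl-CoA desaturase, held 5497, 5500 and 2653 CPM against 52860, 3198 and 1921 (log2 −2.09). EdgeR and DESeq2 called 0 of the 19 tested members (1 at an unadjusted p under 0.05, against 9.04% of all genes), whose median was −1.95. Without RWAT replicate 1 the median turned to 0.55.

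The other adipocyte lists shared this. Without RWAT replicate 1 the median of 10 triglyceride synthesis genes went from −0.75 to 0.93, that of 18 lipolysis and lipid droplet genes from −0.64 to 0.75, that of 16 white adipocyte identity genes from −0.61 to 0.74 and that of 16 tested adipokine genes from −0.49 to 0.38. Without RWAT replicate 3 the 4 medians were −1.23, −1.07, −1.09 and −0.78. Lep, the leptin gene, held 179, 147 and 58.7 CPM in EWAT and 705, 68.5 and 19.8 CPM in RWAT (log2 −1.04, SE 1.2, edgeR adjusted p = 0.851). Adipoq had log2 −0.54 (SE 0.73), and Dgat2, Fabp4, Car3 and Cfd, the top genes of these 4 lists, had log2 −1.66, −0.74, −0.42 and −1.18. RWAT replicate 1 was the highest of the 6 libraries in each of them, and with it left out their log2 fold changes were 1.84, 0.29, 1.28 and 0.43. EdgeR called 0 of the 55 genes of these 4 lists, with 2 at an unadjusted p under 0.05 against 9.04% of all genes, and DESeq2 called 0.

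Mitochondrial and oxidative genes followed the same library. All 42 nuclear-encoded oxidative phosphorylation genes were below 0, with a median of −0.47, and 0.05 without RWAT replicate 1; Atp5b, a subunit of ATP synthase, held 555, 615 and 531 CPM in EWAT and 1452, 487 and 508 in RWAT. For 22 fatty acid oxidation genes the median was −0.55, and 0.25 without that library. EdgeR and DESeq2 called 0 of these 64 genes, and 0 had an unadjusted p under 0.05, against 9.04% of all genes.

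Of 19 brown adipocyte and thermogenic genes 17 were below 0, with a median of −1.5, or −0.67 without RWAT replicate 1. EdgeR called 0 of the 19. DESeq2 called 4, all lower in EWAT, where it called 1.06% of all genes that way. In 5 of the 19 all EWAT libraries lay below all RWAT libraries and in 0 above, where 6.66% and 8.21% of all genes did. Of the 19, 6 had an unadjusted p under 0.05, where 9.04% of all genes did. Ucp1, the uncoupling protein of brown fat, was at 0, 0.0857 and 0.05 CPM in EWAT, all under the floor of 3 counts, and at 12.4, 1.31 and 0.163 CPM in RWAT (log2 −6.40, SE 2.17, edgeR adjusted p = 0.359). Pdk4, a brake on glucose oxidation and the most abundant member, held 35.0, 21.9 and 25.9 CPM against 76.8, 23.7 and 107 (log2 −1.32).

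Nerve-related genes were described because both depots had been denervated. With no innervated fat to set beside them, these levels cannot show what denervation did. Th, the enzyme that starts noradrenaline synthesis and a gene outside the naming rule, was at 0 in 5 of the 6 libraries and at 0.0596 CPM in RWAT replicate 1. Npy, a neuropeptide of sympathetic nerves, held 33.4, 1.88 and 10.6 CPM in EWAT, highest in the library with epididymal transcripts. In RWAT Npy held 0.0596, 4.14 and 1.79 CPM (log2 2.92, SE 1.43). Adrb3, the β3-adrenergic receptor of adipocytes, held 46.5, 43.9 and 26.9 CPM in EWAT and 232, 12.5 and 15.2 in RWAT (log2 −1.15, or 1.49 without RWAT replicate 1). Of 11 tested Schwann cell markers 8 were below 0, with a median of −1.47, or −0.35 without RWAT replicate 1, and Scn7a, the most abundant, had log2 −0.75 and was highest in RWAT replicate 1 at 357 CPM. Of 28 tested genes in the sympathetic, adrenergic receptor and Schwann cell lists edgeR called 0, and 6 had an unadjusted p under 0.05. DESeq2 called 3, all lower in EWAT. Over all genes 9.04% had such an unadjusted p, and DESeq2 called 1.06% as lower in EWAT. The sympathetic median was −0.22, or 0.32 without RWAT replicate 3, and the adrenergic receptor median −0.64, or 0.28 without RWAT replicate 1.

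Of 29 vessel markers edgeR called 0, 3 had an unadjusted p under 0.05 and DESeq2 called 1. Over all genes the last 2 shares were 9.04% and 3.51%. The median was −0.51 for 12 endothelial markers, or −0.21 without RWAT replicate 2, with Cdh5, the cadherin of endothelial junctions, at 164, 123 and 137 CPM in EWAT and 166, 320 and 116 in RWAT (log2 −0.51, edgeR adjusted p = 0.733). It was −0.27 for 7 lymphatic markers (Pdpn log2 −0.21), between −1.25 without EWAT replicate 3 and 0.022 without RWAT replicate 3. For 10 smooth muscle and pericyte markers it was −0.29 (Acta2 log2 0.22), and it turned to 0.06 without RWAT replicate 3. Mki67, a marker of dividing cells, held 253, 193 and 340 CPM in EWAT and 44.7, 432 and 273 CPM in RWAT (log2 0.07).

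Tissue next to the fat was checked by its markers. The 18 skeletal muscle markers summed to 33.1, 42.2 and 28.4 CPM in EWAT and to 94.0, 95.6 and 19140 CPM in RWAT. Ttn, the titin gene, held 8.81, 11.6 and 8.60 CPM in EWAT and 19.5, 50.3 and 7339 in RWAT (log2 −8.00, SE 2.09, edgeR adjusted p = 0.233). In 10 of the 18 markers all EWAT libraries lay below all RWAT libraries, where 6.66% of all genes did. EdgeR called 0 of the 18, with a median of −7.76, or −1.77 without RWAT replicate 3. All 18 had an unadjusted p under 0.05, where 9.04% of all genes did. DESeq2 called 16 as lower in EWAT, where it called 1.06% of all genes that way. Of 11 kidney markers, 3, 5 and 3 were above 3 counts in EWAT replicates 1, 2 and 3, and 1, 2 and 2 in those of RWAT. Among the 11, Umod and Kap, named after their values were seen, were at 0 in all 6 libraries. Lrp2, which mesothelium and epididymis also express, held 68.8, 15.3 and 10.2 CPM in EWAT and 6.37, 6.40 and 27.6 in RWAT. Adrenal markers were led by Star, which starts steroid synthesis, at 63.5 CPM in EWAT replicate 2, the library with testis somatic transcripts, and 3.63 to 19.4 CPM in the other 5. Mup10, a major urinary protein gene, held 35.7, 1.35 and 6.25 CPM in RWAT and 0, 0.257 and 0 in EWAT (log2 −7.17, edgeR adjusted p = 0.128). It was higher in the other depots, at 1290 ± 752 CPM in IWAT and 202 ± 78.4 in BAT (n = 3 each). Of 9 tested hepatic secretory and major urinary protein genes edgeR called 0, and 3 had an unadjusted p under 0.05, against 9.04% of all genes. DESeq2 called 2 as lower in EWAT, against 1.06% of all genes.

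Replicates lay closer together in EWAT than in RWAT. The median over genes of the SD of log2 CPM was 0.27 in EWAT and 0.42 in RWAT, and it was larger in RWAT for 67.7% of genes. Without RWAT replicate 1 that share was 42.9%, and without replicates 2 and 3 it was 62.6% and 62.7%. These shares set an SD over 2 RWAT libraries against an SD over 3 EWAT libraries, so they cannot be compared directly with 67.7%. The biological coefficient of variation, edgeR's measure of spread beyond counting error, was 0.286 in EWAT and 0.449 in RWAT, and 0.301 in RWAT without replicate 1.

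With only the 6 EWAT and RWAT libraries in the fit, the count of edgeR calls was 0 (0.0%), and 1443 genes passed an uncorrected p of 0.05. It was also 0 (0.0%) without EWAT replicate 2, where 1016 genes passed an uncorrected p of 0.05. None of the 8 calls was thus made in either of these fits.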

How the data were processed

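Total RNA from denervated fat was depleted of ribosomal RNA and sequenced as single reads of 75 bases, per the labels' protocols. Per the submitters' processing notes, Trimmomatic 0.36, RSEM 1.3.0 and DESeq2 1.10.1 were used with GRCm38.p4; no annotation or strand setting was found in these sources, so counts of overlapping and antisense genes are uncertain. The deposited files give, per the file headers, an expected count for each of 47729 genes, TPM, scaled by length, and a posterior SD of each count; the posterior SD, deposited by the authors and treated as a signal, was used only to describe uncertainty.

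Expected counts were rounded and tested with edgeR 4.0.16 (R 4.3.3) in 1 quasi-likelihood fit of all 12 libraries by depot, after filterByExpr and TMM, as EWAT minus RWAT with Benjamini-Hochberg adjustment over 19154 genes. The floor is 3 counts. DESeq2 1.42.0, limma 3.58.1 voom, other scalings and filters, a replicate block, the 6 libraries alone and leaving out each replicate were alternatives; summing Rps16 and Rpl13 with their copies was added after the data were seen. The test was tried on simulated data. Library totals of 15699912 to 20219615 counts set the precision, and intervals cover counting error only. Genes were named by rule: 12 core genes, the 12 of each direction with the largest change among called genes of mean log2 CPM 2 or more without overlap, filled by smallest p, and for each list its called members of largest change or else its most abundant member; En1, Meox2, Pax3, Shox2, Hoxa9, Hoxa10, Hoxc9, Th, Umod, Kap, Igkc, H2-Aa, H2-Eb1, Rpl13 and the epididymal and germ cell genes were named outside it, after values were seen. Some genes that the rule names are not reported here. The comparison, the gene lists and the rule were chosen with earlier results of these data known. Coordinates are from GENCODE M21 (GRCm38), which matched 47224 of the genes.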

Additional observations from a re-analysis of the deposited data

How the results depend on the processing

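The number of called genes, 8, was 788 with DESeq2 (550 higher and 238 lower in EWAT), 18 with limma-voom and quality weights (7 and 11), 0 in the fit of 6 libraries (0 and 0, with 0 list members) and 5 with copies summed (1 higher); library sizes alone left 2 higher and limma-voom 2 lower. Leaving out 1 replicate gave 0 to 804 calls, 0 to 759 higher and 0 to 45 lower, the highest without EWAT replicate 1 and the lowest without EWAT replicate 2. Called list members, 4, were 45 with DESeq2, 2 with limma-voom and 0 to 8 with a replicate left out. The share of genes with the larger spread in RWAT was 42.9% to 74.3% with a replicate left out. The labels do not say whether EWAT and RWAT libraries of the same number came from the same mouse. Correlations of their deviations across genes were 0.15, −0.14 and 0.03, and those of unlike numbers ran from −0.24 to 0.29. With 3 libraries a depot these values cannot show whether the libraries were paired. The replicate block called 12 genes, 6 in each direction. Over 17 alternatives and 70 tested named genes, 1068 of 1185 comparisons kept direction and side of the threshold. Most of these genes were not called to begin with, so that count says little about the 8 calls. Of 17 alternatives, Zfhx4 was called in 15, Mmp3 in 14, Tbx15 and Rps16 in 12 each and Bspry in 7. Of 16 alternatives, Rps16-ps2 was called in 14 and Gm12918 in 9.

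Directions turned for genes that were not called. With limma-voom Adrb3 had log2 0.14, Car3 0.20, Dgat2 0.041, Lep 0.21 and Lpl 0.27. With quality weights Acta2 had −0.11, Adipoq 0.28, Adrb3 0.89, Car3 0.67, Dgat2 0.95, Fabp4 0.055, Lep 0.90, Lpl 0.96 and Scd1 0.082. With the replicate block Lep had 0.091, Lpl 0.15 and Pdpn 0.049. With 1 replicate left out, the highest value came without RWAT replicate 1 for Adipoq (−0.94 to 0.85), Adrb3 (−1.67 to 1.49), Atp5b (−0.80 to 0.18), Car3 (−0.88 to 1.28), Cfd (−1.81 to 0.43), Dgat2 (−2.21 to 1.84), Fabp4 (−1.15 to 0.29), Fasn (−3.63 to 1.11), Lep (−1.60 to 1.53), Lpl (−1.05 to 1.27), Scd1 (−2.63 to 0.82) and Scn7a (−1.10 to 0.27). The lowest came without it for Acta2 (−0.23 to 0.51), Jun (−0.56 to 0.064), Mki67 (−0.44 to 0.72), Nr2f1 (−0.076 to 0.43) and Pdpn (−0.60 to 0.037). Lrp2 ranged from −0.089 without EWAT replicate 1 to 2.29, and Star from −0.66 without EWAT replicate 2 to 2.64. The cause was not tested. With 3 libraries a depot an exact permutation test of 1 gene cannot go below p = 0.1.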

Other observations

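Of 80 genes in 7 further lists (erythroid, cell cycle, interferon, stress, retinoid, steroid and circadian) edgeR called 0, and 3 had an unadjusted p under 0.05. DESeq2 called 1, higher in EWAT. Over all genes 9.04% had such an unadjusted p, and DESeq2 called 2.45% as higher in EWAT. Dhrs3, a retinaldehyde reductase that limits retinoic acid, held 140, 151 and 183 CPM in EWAT and 117, 114 and 101 CPM in RWAT (log2 0.51, SE 0.16, edgeR adjusted p = 0.328). Its depots did not overlap, while the 14 retinoid genes had a median of 0.03, between −0.14 and 0.34 with 1 library left out.

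All 12 interferon response genes were below 0, with a median of −0.76, between −1.65 without EWAT replicate 3 and 0.021 without RWAT replicate 3. The 15 circadian clock genes had a median of −0.44, or 0.09 without RWAT replicate 1, and Clock, a core activator of the cycle, had log2 −0.37. Nr3c1, the glucocorticoid receptor, had log2 −0.31 and was highest in RWAT replicate 1 at 252 CPM. Jun, an immediate early gene, had log2 −0.20, and the 12 stress genes had a median of 0.18, between −0.13 without RWAT replicate 1 and 0.69 without RWAT replicate 3. Hbb-bs, a haemoglobin chain of red cells, held 471, 680 and 454 CPM in EWAT and 648, 889 and 877 in RWAT (log2 −0.59, edgeR adjusted p = 0.735).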
